A study of Rattus norvegicus with 13 samples.

Results

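The genes described here mark the cells of brain blood vessels or carry signals between those cells and the surrounding tissue. The list held 10 gene names, and each name was matched to the deposited row that carried it. Of these, 8 were found among the 14716 rows of the series and all 8 had a mean of at least 10 normalized counts. No row carried the name *Flt1* or *Abcb1a*, so the VEGF decoy receptor and the efflux pump P-glycoprotein were not analysed here. Each of the 8 names had 1 row, an Ensembl transcript, and reads of other transcripts of the same gene were not seen separately.

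The posterior ventricular zone (VZ), the progenitor layer that lines the lateral ventricle, was cut out by laser from 13 male Long Evans rat pups on postnatal day 2 (PN2). The 7 control pups were euthyroid and came from dams given deionized water. The 6 PTU exposed pups were hypothyroid and came from dams given 3 ppm propylthiouracil (PTU, which blocks thyroid hormone synthesis) in that water. The exposure began on gestational day 6 and was ongoing when the pups were taken on PN2. Each pup came from its own litter, and the pups were perfused with sucrose before freezing, which washes blood out of the vessels.

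Brain capillaries are tubes of endothelial cells that share a basement membrane with pericytes, the contractile support cells of small vessels. VEGF-A released by the surrounding tissue acts on its receptor VEGFR2 on endothelial cells and drives sprouting of vessels into the brain. Endothelial cells in turn release PDGF-B, which recruits pericytes through PDGFRβ, and both cell types together build the blood-brain barrier. The VZ has its own vascular plexus, and vessels here are one route by which thyroid hormones reach progenitors.

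The ligand *Vegfa* and its main receptor *Kdr* are the pair around which these results are ordered, so the start of each gene is shown. RefSeq promoter windows of 300 bases, from 250 before to 50 after the start, were held for 4 of the 8 genes (assembly GRCr8, not the mRatBN7.2 build of the data). The *Vegfa* window lies at chr9:22452604-22452903 and the *Kdr* window at chr14:32571813-32572112, both on the plus strand. Capitals mark GC boxes (GGGCGG on either strand), the letters bound by Sp1 type factors.
Vegfa: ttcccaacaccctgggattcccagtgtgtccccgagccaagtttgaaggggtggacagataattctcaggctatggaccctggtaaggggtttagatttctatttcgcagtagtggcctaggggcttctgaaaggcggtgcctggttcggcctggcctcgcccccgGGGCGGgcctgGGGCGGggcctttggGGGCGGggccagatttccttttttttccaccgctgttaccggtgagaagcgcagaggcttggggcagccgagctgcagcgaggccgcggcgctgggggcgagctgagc
Kdr: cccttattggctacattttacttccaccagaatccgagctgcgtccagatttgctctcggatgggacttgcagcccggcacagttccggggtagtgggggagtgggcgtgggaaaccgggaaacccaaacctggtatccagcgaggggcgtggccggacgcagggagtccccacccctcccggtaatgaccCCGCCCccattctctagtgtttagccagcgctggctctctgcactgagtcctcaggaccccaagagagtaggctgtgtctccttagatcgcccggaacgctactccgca
The *Vegfa* window held 3 GC boxes and the *Kdr* window 1, and 33.1% of 33469 promoter windows of that length held at least 1. Neither window held ACGTG, a form of the hypoxia response core present in 19.3% of all windows. Neither held the thyroid hormone response element core AGGTCA, present in 16.2%. The other form of the hypoxia core, GCGTG, was not counted and is seen in the *Kdr* letters above. A second *Vegfa* start in RefSeq had no GC box and 1 AGGTCA. These matches describe letters in a short window, and no binding was measured.

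In limma, 0 of the 8 genes differed between PTU exposed and control pups at an adjusted p of at most 0.05, and the same was true of 0 of the 14606 rows tested (0%). *Vegfa* and *Pdgfrb* had the lowest p-values, and both were lower on average after PTU exposure. Their unadjusted p was under 0.05, which held for 2 of 8 genes in the lower direction and 0 of 8 in the higher one. Over all tested rows these shares were 8.2% and 8.11%. The ranges of the groups overlapped for all 8 genes, and they did not overlap in 0.596% of tested rows. The median log2 fold change was 0.02 over the 8 genes and 0.0038 over all tested rows. Because these are bulk samples, fewer vascular cells and less RNA per vascular cell cannot be told apart.

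**Figure D1:**
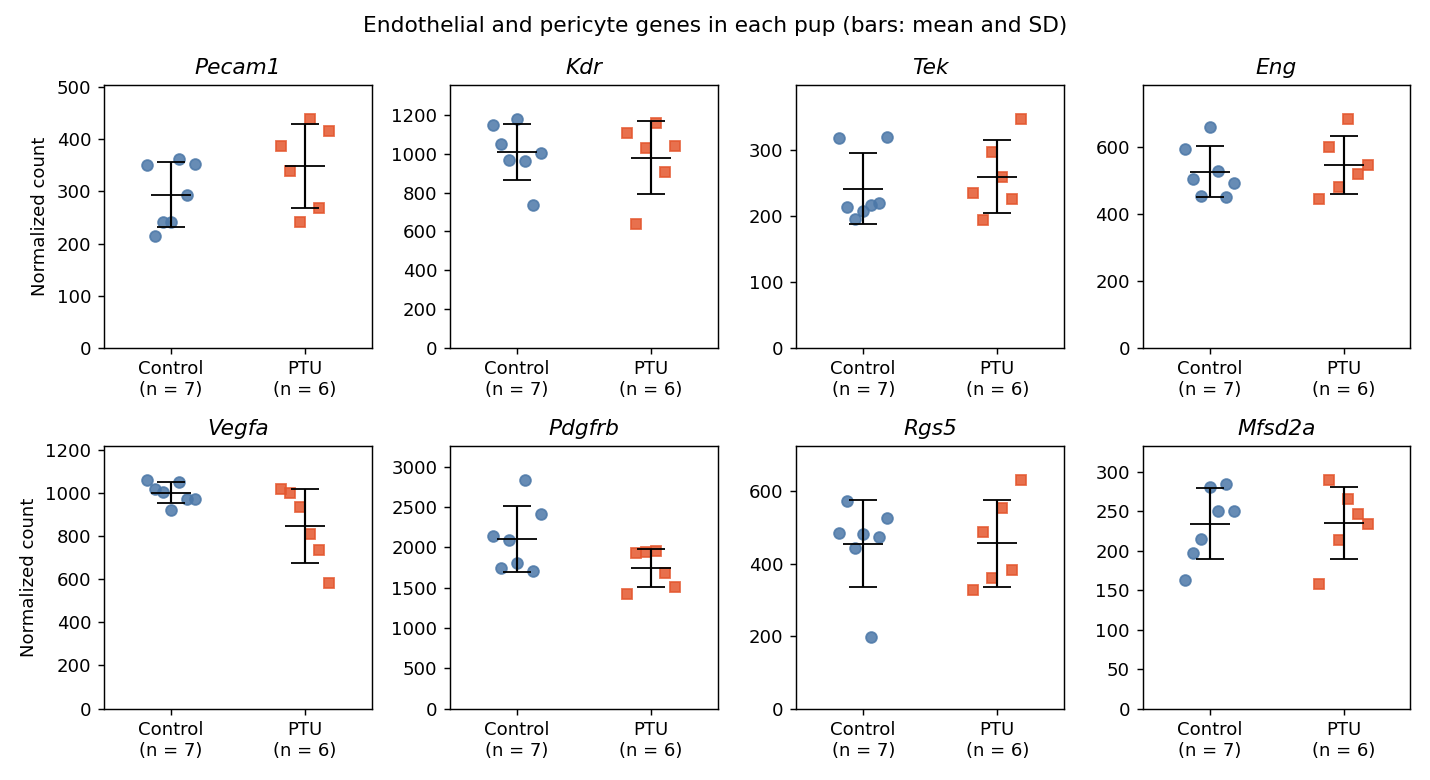
Normalized counts (y axis, linear, from 0) of the 8 genes in each control pup (circles, n = 7) and PTU exposed pup (squares, n = 6), with the mean and SD as bars. The groups overlap in every panel; for *Vegfa* the control pups lie close together, from 923 to 1059.6, and 3 PTU exposed pups lie below all of them.

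*Vegfa* encodes the ligand VEGF-A. In control pups it ranged from 923 to 1059.6 normalized counts (median 1006), and in PTU exposed pups from 583 to 1017 (median 872). PTU pups 4, 5 and 6 lay below every control pup, at 809, 735 and 583, while PTU pups 1, 2 and 3 lay within the control range. The means were 1000.4 ± 48.9 (SD, n = 7) and 846 ± 169.7 (SD, n = 6), so the coefficient of variation was 4.89% in control and 20.05% in PTU exposed pups. On the log2 scale the fold change was -0.27 (standard error 0.12, 95% interval -0.51 to -0.02), its adjusted p in limma was 0.283, and its unadjusted p over the exact permutations was 0.0291 (two-sided). Leaving out PTU pup 6 gave a log2 fold change of -0.16 (exact permutation test, p = 0.0694), and the exact p was under 0.05 in 4 of 13 such omissions.

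*Kdr* encodes VEGFR2. It ranged from 738 to 1178 normalized counts in control pups (median 1006), against 637 to 1161 in PTU exposed pups (median 1035). PTU pup 2 alone lay below the control range. The receptor's log2 fold change was -0.05 (standard error 0.14, 95% interval -0.34 to 0.24; adjusted p = 0.883 in limma). A fall of up to 0.34 or a rise of up to 0.24 on the log2 scale lies within that interval.

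Other VEGF genes were read beside this pair from a list of 16 ligands, receptors and regulators of the hypoxia response, of which 15 had a tested row. None passed the test in limma. Estimates were above 0 for 4 and below 0 for 11 (median log2 fold change -0.09), and 3 had an unadjusted p under 0.05, all lower (*Egln3*, *Epas1* and *Pgf*). Over all tested rows, 8.2% were lower at that threshold in limma. *Egln3*, an oxygen sensing prolyl hydroxylase, and *Pgf*, a ligand, are named after their values were seen. *Egln3* averaged 1360 ± 225 and 1058 ± 145 normalized counts (log2 fold change -0.36, adjusted p = 0.174), and *Pgf* 64.1 ± 22.5 and 39.0 ± 9.81 (log2 fold change -0.66, adjusted p = 0.283). *Epas1* (HIF-2α, a hypoxia factor abundant in endothelium) averaged 1961 ± 137 and 1728 ± 135 normalized counts and 6 of 6 PTU exposed pups lay under the control mean (log2 fold change -0.18, adjusted p = 0.262). *Hif1a*, the other hypoxia factor, averaged 3436 ± 526 and 3389 ± 249.9 (log2 fold change -0.01, adjusted p = 0.970). The log2 fold changes of *Vegfb* and *Vegfc*, further ligands, were 0.20 and -0.31 (standard errors 0.13 and 0.35). Those of the receptors *Nrp1* and *Flt4* were 0.05 and 0.03, both smaller than their standard errors of 0.23 and 0.19. *Nrp1* stood at 3234 normalized counts in PTU pup 1, against a PTU median of 1113 and a highest control value of 1696.

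*Pecam1* encodes the adhesion molecule PECAM-1 at endothelial cell contacts, the marker used to stain vessels. It ranged from 215 to 363 normalized counts in control pups (median 294), against 241 to 438 in PTU exposed pups (median 363). Above the highest control pup lay 3 of 6 PTU exposed pups, and none lay below the lowest. Its log2 fold change was 0.24 (standard error 0.18), with a 95% interval of -0.14 to 0.61 that spans both directions (adjusted p = 0.515 in limma, and unadjusted p = 0.213 in the two-sided exact permutation test).

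*Tek* encodes TIE2, the angiopoietin receptor that keeps vessels quiescent. Control pups ranged from 195 to 320.1 normalized counts (median 217), and 5 of them lay at 220.1 or below while control pups 1 and 7 reached 318 and 320.1. PTU exposed pups ranged from 194 to 347 (median 247). The fitted log2 fold change was 0.11 with a standard error of 0.17 (limma, adjusted p = 0.793), and it was 0.0167 without PTU pup 6 and 0.18 without PTU pup 2. Of 8 genes listed for the angiopoietin pathway, *Tek* included, 7 were tested and 0 passed, with 5 estimates above and 2 below 0. The sister receptor *Tie1* averaged 293 ± 68 and 395 ± 115 normalized counts, and 5 of 6 PTU exposed pups exceeded the control mean (limma, log2 fold change 0.41 ± 0.20, adjusted p = 0.315, where ± is the standard error). The ligands *Angpt1* and *Angpt2* had log2 fold changes of -0.21 and 0.05 (standard errors 0.24 and 0.30).

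*Eng* encodes endoglin, a coreceptor for BMP9 and TGF-β on endothelial cells. It ranged from 450.0 to 658 normalized counts in control pups (median 503), against 443 to 683 in PTU exposed pups (median 533), almost the same span. Its log2 fold change was 0.05 (standard error 0.12, 95% interval -0.21 to 0.31; adjusted p = 0.876 in limma). In the list of its partner receptors, ligands and effectors, 15 of 17 genes were tested and 0 passed, with 3 estimates above and 12 below 0. The receptors *Acvrl1* (ALK1) and *Tgfbr2* lay under the control mean in all 6 PTU exposed pups, with log2 fold changes of -0.38 and -0.22 (limma, adjusted p = 0.414 and 0.355).

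**Figure D2:**
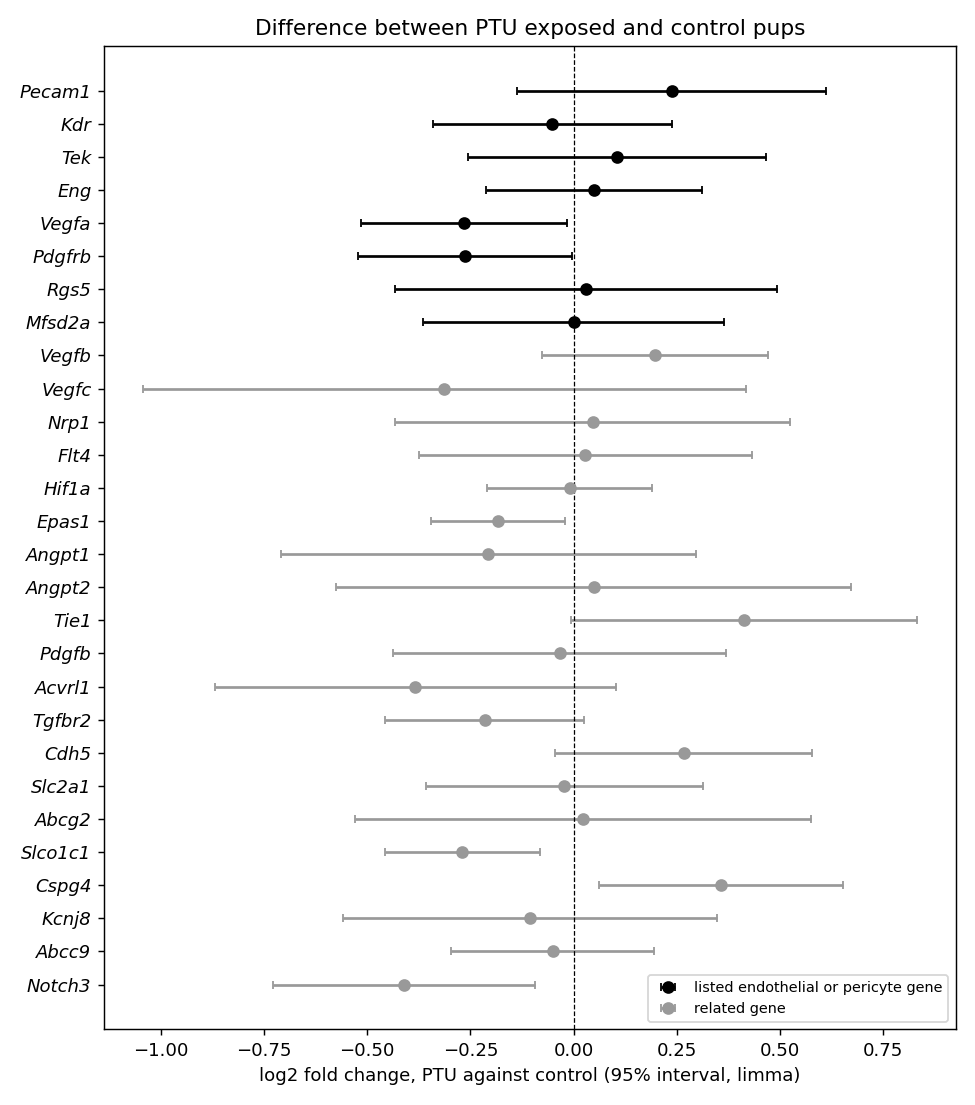
Log2 fold change of PTU exposed against control pups (x axis) with 95% intervals from limma for the 8 listed genes (black) and 20 related genes (grey). Among the listed genes only the intervals of *Vegfa* and *Pdgfrb* lie wholly below 0, before adjustment for the number of rows tested.

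*Pdgfrb* encodes the PDGF-B receptor of pericytes, and is also made by fibroblasts and some neural progenitors. It ranged from 1702 to 2838 normalized counts in control pups (median 2088), against 1422 to 1956 in PTU exposed pups (median 1808). All 6 PTU exposed pups lay below the control mean of 2105, and PTU pups 1, 5 and 6 lay below every control pup. The log2 fold change was -0.26 (standard error 0.12, 95% interval -0.52 to -0.00357; limma, adjusted p = 0.299). Over the exact permutations the unadjusted p was 0.0769 (two-sided). Without control pup 5, the highest, it was -0.19 (adjusted p = 0.460). Its unadjusted limma p of 0.0472 was above 0.05 with the replicate block (0.0832), weighted pups (0.0644), no variance trend (0.0733), equal totals (0.769) or totals without the 3 highest rows (0.0672).

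*Rgs5* encodes a regulator of G protein signaling that is a pericyte marker. It ranged from 199 to 573 normalized counts in control pups (median 482), against 327 to 631 in PTU exposed pups (median 436), the widest of the 8 genes by the ratio of the highest to the lowest pup (3.18). Control pup 5 was lowest at 199, far from the next control pup at 444. The log2 fold change was 0.03 with a standard error of 0.22 (limma, adjusted p = 0.957), and -0.16 without control pup 5. The same pup had the highest *Pdgfrb* value of the 13.

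Of 18 other genes listed for pericytes and vascular smooth muscle, 14 were tested and 0 passed in limma, with 6 estimates above and 8 below 0 (median log2 fold change -0.08). An unadjusted p under 0.05 was found for 1 higher gene (*Cspg4*) and 3 lower ones (*Mcam*, *Cnn1* and *Notch3*), of which *Mcam* and *Cnn1* are named after their values were seen. At that threshold 8.11% of all tested rows were higher and 8.2% lower. *Mcam* (CD146, an adhesion molecule of pericytes and endothelium) ranged from 1049 to 1429 normalized counts in control pups, against 704 to 1082 after PTU exposure, and 5 of 6 PTU exposed pups lay below every control pup (log2 fold change -0.37, adjusted p = 0.150). *Cnn1*, a smooth muscle calponin, was low and variable, with 25.7 to 58.0 in control pups and 3.17 to 45.6 after PTU exposure (adjusted p = 0.187 for a log2 fold change of -1.50 ± 0.53, standard error). *Cspg4* (NG2, found on pericytes and on oligodendrocyte progenitors) averaged 654 ± 129 and 832 ± 124 normalized counts, and 5 of 6 PTU exposed pups exceeded the control mean (log2 fold change 0.36, adjusted p = 0.233). *Notch3*, a receptor of mural cells that progenitors also carry, averaged 3481 ± 877 and 2591 ± 494 (log2 fold change -0.41, adjusted p = 0.204). The pericyte potassium channel genes *Kcnj8* and *Abcc9* had log2 fold changes of -0.11 and -0.05 (standard errors 0.21 and 0.12). For *Pdgfb*, the ligand by which endothelium recruits pericytes, the means were 134 ± 26.1 and 131 ± 26.7 normalized counts (adjusted p = 0.946).

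*Mfsd2a* encodes the lipid transporter by which barrier endothelium takes up docosahexaenoic acid and holds back transcytosis. It ranged from 163 to 284 normalized counts in control pups (median 249.6), against 158 to 289 in PTU exposed pups (median 240.2), and the means of 234 ± 44.6 and 235 ± 45.6 were nearly equal. The log2 fold change was 0.00036 (standard error 0.17, 95% interval -0.36 to 0.36; adjusted p = 1.000 in limma). The interval leaves room for a change of up to 0.36 on the log2 scale in either direction.

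The list of barrier transporters, junction genes and the Wnt signal that induces them held 27 genes, of which 24 were tested and 0 passed, with 7 estimates above and 17 below 0. An unadjusted p under 0.05 in limma was found for 2 higher and 5 lower genes. Over all tested rows the shares were 8.11% higher and 8.2% lower. The glucose transporter *Slc2a1* and the efflux pump *Abcg2* had log2 fold changes of -0.02 and 0.02 (limma, adjusted p = 0.956 and 0.975). No row carried the name of the tight junction gene *Cldn5*. The thyroxine transporter *Slco1c1* (OATP1C1), which glia also make, lay under the control mean in all 6 PTU exposed pups. In limma the difference was -0.27 on the log2 scale, with a standard error of 0.09 (adjusted p = 0.174).

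The label of the genes was checked against other markers of these cells. Of 26 further endothelial genes, 22 had a tested row and none was at 0 in all pups, with *Cdh5* (VE-cadherin) at 510 ± 105 normalized counts in control and 608 ± 98.2 in PTU exposed pups. Their summed level ranged from 6877 to 7801 in control pups and from 6461 to 9362 in PTU exposed pups. Of the 22 estimates, 18 were above and 4 below 0 (median log2 fold change 0.13), and 0 passed in limma. Endothelial transcripts were thus measured in every pup.

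Markers of other cell types that a capture could hold were summed in the same way. The 14 choroid plexus genes were all detected, with *Ttr* the most abundant, and their summed level ranged from 53557 to 149740 normalized counts in control pups (median 121536), against 25078 to 108136 in PTU exposed pups (median 60207). All 14 estimates were below 0 (median log2 fold change -0.78). Radial glia and VZ markers summed to between 110110 and 141463 in control and between 88081 and 117276 in PTU exposed pups, with 12 of 12 estimates below 0 (median -0.33). Neuron markers summed to between 53534 and 77288 and between 70339.9 and 122980, with 10 of 10 above 0 (median 0.39). Fibroblast and meningeal markers, 6 of 10 with a row, summed to between 4179 and 15426 in control and between 3004 and 12734 in PTU exposed pups (6 of 6 estimates below 0, median -0.38), and microglia markers to between 2041 and 2915 and between 2059 and 3038. None of these genes passed in limma. An unadjusted p under 0.05 in limma was found for 9 of 14 choroid plexus genes and 7 of 12 VZ genes, all lower. The same held for 5 of 10 neuron genes, all higher, and for 1 of 6 fibroblast genes, which was lower. Of 11 microglia genes 1 was higher and 1 lower at that threshold. Over all tested rows the shares were 8.11% higher and 8.2% lower. Choroid plexus epithelium and glia are known sources of *Vegfa*. The study does not count choroid plexus cells among those captured. PTU pup 6 had the lowest *Vegfa* value, the lowest choroid plexus sum (25078) and the highest endothelial sum (9362), whereas PTU pup 4 had a *Vegfa* value below all controls with the highest choroid plexus sum of its group (108136). The part of these cells in the *Vegfa* and *Pdgfrb* values was not tested.

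**Figure D3:**
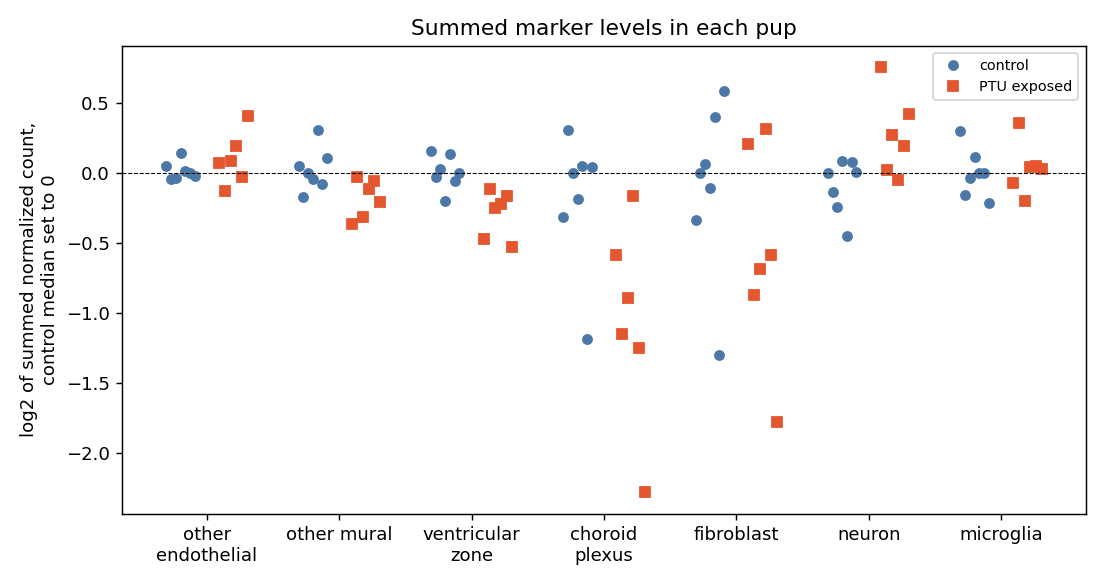
Summed normalized count of each marker list in each pup, as log2 relative to the control median (y axis; circles control, squares PTU exposed). Endothelial sums ranged from 6461 to 9362 normalized counts, highest in PTU pup 6, and microglia sums from 2041 to 3038, highest in PTU pup 2, while choroid plexus sums spread from 25078 to 149740 normalized counts and lay below the control median of 121536 in all 6 PTU exposed pups.

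Each gene was also set against the mean log2 value of the 22 other endothelial genes of the same pup, a difference that does not depend on how a pup was scaled. That mean itself was 0.14 higher in PTU exposed pups (exact permutation test, two-sided, p = 0.160), and this amount is part of every difference below. For *Vegfa*, *Pdgfrb* and *Rgs5*, which other cells make, the difference is a ratio to endothelial transcripts and not a level per vessel. Relative to it, *Vegfa* was lower by a difference of -0.41 (control 2.51 ± 0.14, PTU exposed 2.11 ± 0.45 on the log2 scale, SD; exact permutation test, unadjusted p = 0.0268), and 4 of 6 PTU exposed pups lay below the lowest control pup. *Pdgfrb* differed by -0.40 (3.57 ± 0.19 and 3.16 ± 0.34; exact permutation test, unadjusted p = 0.0186), with 3 of 6 below the lowest control pup. *Kdr* differed by -0.19, and all 6 PTU exposed pups lay under the control mean (exact permutation test, p = 0.0833, and p = 0.0498 without control pup 6, where it was -0.23). The other 5 genes differed by -0.14 to 0.10, with exact permutation p-values from 0.494 to 0.783. With 1 pup left out the difference ranged from -0.32 (without control pup 5) to -0.0094 (without PTU pup 1) for *Rgs5* and from -0.27 (without PTU pup 2) to -0.0194 (without PTU pup 1) for *Mfsd2a*. For *Eng* it ranged from -0.18 to -0.0214 (without PTU pups 2 and 1) and for *Pecam1* from 0.0386 to 0.19 (without PTU pups 2 and 3). No omission brought the exact permutation p of these 4 genes or of *Tek* to 0.05, the lowest being 0.0758 for *Rgs5*. Of the 8 unadjusted tests, the p of *Pdgfrb* stayed at or under 0.0433 with any 1 pup left out, and that of *Vegfa* rose to at most 0.0644, in the omission of PTU pup 6, where its difference was -0.25; it was also over 0.05 without control pup 2 or 6 or PTU pup 4 (0.0584, 0.0606 and 0.0505, exact permutation tests).

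**Figure D4:**
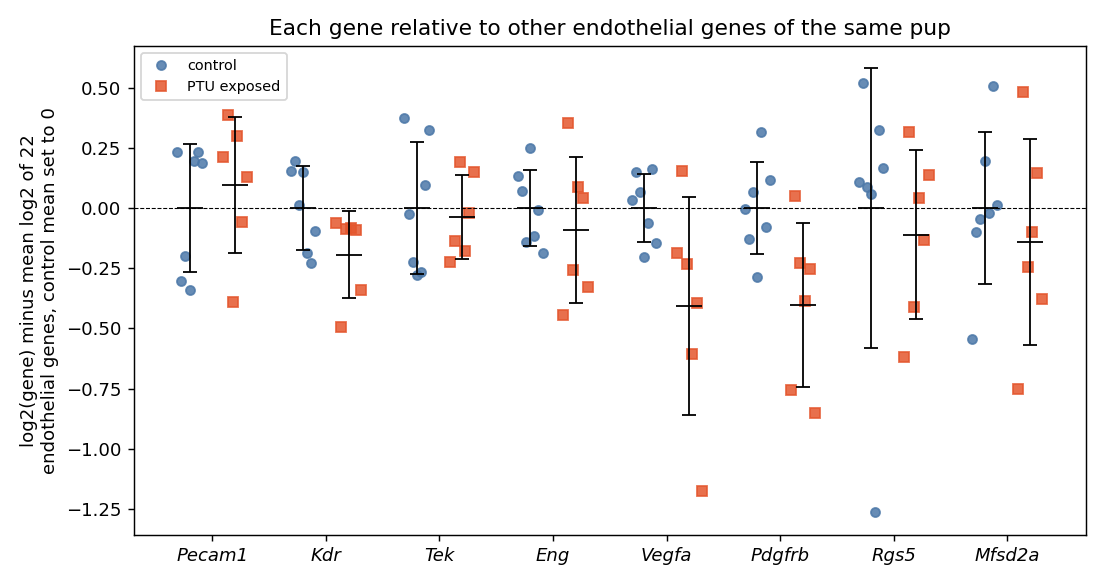
Each gene's log2 value minus the mean log2 value of 22 other endothelial genes in the same pup, with the control mean set to 0 (y axis; circles control, squares PTU exposed, bars mean and SD). *Vegfa* and *Pdgfrb* lie lower in PTU exposed pups, by -0.41 and -0.40, with 1 PTU exposed pup of each above the control mean.

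How the genes varied from pup to pup was examined after removing the group means, over 13 pups and 28 pairs of genes. In 16 pairs the correlation was positive, and 0 of 28 passed a permutation test at an adjusted p of 0.05 (0 also had an unadjusted p under 0.05). The highest was *Kdr* with *Tek* (Pearson r = 0.46, Spearman rho = 0.41, permutation p = 0.108 and 0.170, adjusted p = 0.736 and 0.593), and r was 0.21 without the 2 pups farthest from the median of *Kdr*. The lowest was *Kdr* with *Mfsd2a* (r = -0.51, rho = -0.37, permutation p = 0.0698 and 0.219, adjusted p = 0.736 and 0.593), with r = -0.18 without the 2 farthest pups. With equal totals in all pups, 9 of 28 pairs passed and 27 were positive.

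The genes were compared in the same way with the mean of 4 marker lists, which gave 32 relations. *Kdr*, *Tek* and *Pecam1* followed the other endothelial genes most closely, with r = 0.76, 0.62 and 0.56 and rho = 0.66, 0.58 and 0.67. Permutation tests gave unadjusted p-values for r of 0.0016, 0.0261 and 0.0494 (adjusted p = 0.0512, 0.279 and 0.316) and for rho of 0.0165, 0.0424 and 0.0144 (adjusted p = 0.264, 0.339 and 0.264). Without the 2 pups farthest from the median, r was 0.46, 0.45 and 0.61. In that check *Rgs5* reached 0.46 with the endothelial list, against -0.03 with all pups, so the order of the genes did not hold. *Eng* followed the mural list rather than the endothelial one in size, at r = 0.59 against 0.25 (rho = 0.49 and 0.35, permutation p for r = 0.0348 and 0.404, for rho = 0.0925 and 0.239, adjusted p for r = 0.279 and 0.696, for rho = 0.517 and 0.631), and the difference between these was not tested. Without the 2 pups farthest from the median of *Eng*, r was 0.64 and 0.0013. For *Vegfa*, r with the endothelial list was -0.39 and with the choroid plexus list 0.45 (rho = -0.25 and 0.32, permutation p for r = 0.186 and 0.129, for rho = 0.414 and 0.283, adjusted p for r = 0.542 and 0.457, for rho = 0.698 and 0.632), and r was -0.21 and -0.10 without its 2 farthest pups.

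**Figure D5:**
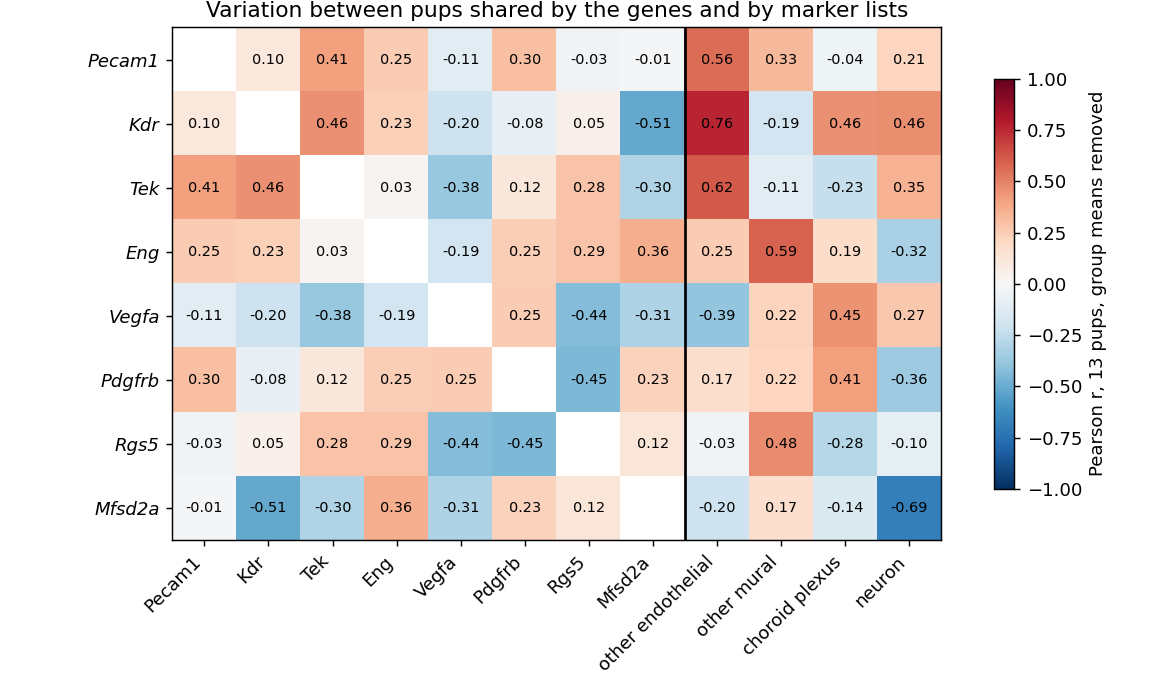
Pearson r over 13 pups, with group means removed, between the 8 genes (left of the line) and between each gene and the mean of 4 marker lists (right of the line); red is positive and blue negative. *Kdr* with the endothelial list (0.76) is the highest value, and *Mfsd2a* with the neuron list (-0.69) the lowest, though the latter was -0.0657 without the 2 pups farthest from the median.

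Among 13078 other named rows, those with the pattern most like each gene over the 13 pups were ranked by Pearson r, after removing the group means. For *Vegfa* the first 3 were *Trps1*, *Drc1* and *Irf2* (r = 0.88, 0.88 and 0.87). *Pdgfrb* was most like *Tspan12* (r = 0.90), then *Stk3* and *Klf15* (r = 0.90 and 0.89). The closest rows were *Gfral* and *Rsrp1* for *Pecam1* (r = 0.88 for both), *Plppr5* for *Kdr* (0.93), *Arih1* for *Tek* (0.92), *Ndc1* for *Eng* (0.80), *Drd2* for *Rgs5* (0.88) and *Pip5k1a* for *Mfsd2a* (0.91). *Gfral* and *Drd2* were low, with means of 18.1 and 47.4 normalized counts. These r values are the highest of many and are given as a description.

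The values also rest on how each pup was scaled. When every pup was given the same total, the median of all rows shifted by 0.20 on the log2 scale, and the log2 fold changes of *Vegfa* and *Pdgfrb* became -0.06 and -0.06. Relative to that shift they were -0.27 and -0.27. From 32.4 to 60.1% of a control pup's total and from 23.9 to 57.0% of a PTU exposed pup's total lay in the 3 highest rows, which carry no gene name. With these rows left out of the total, the 2 values were -0.26 and -0.26.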

How the data were processed

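Stranded total RNA libraries, 1 per pup, were made from VZ tissue captured by laser (7 control and 6 PTU exposed pups). The paper reports some degradation of the VZ RNA, whereas RNA of hippocampal control cells from the slides was intact. The authors trimmed the reads with Trimmomatic, aligned them to mRatBN7.2 (rn7) with STAR 2.7.8a, estimated transcript counts with Partek's expectation/maximization algorithm and scaled each pup by its median ratio factor. The deposited unit is accordingly a non-negative signal, which the text calls the normalized count. The deposited table also holds the p-value, FDR, ratio, fold change and group means of the authors' DESeq2 comparison, which were not used. Totals per pup ranged from 24790300 to 47779600 normalized counts. Low values (20 to 150) were whole multiples of 1 step per pup in 88.9 to 90.5% of cases (within 0.05 of a step), so whole reads were not recovered and no count model was run. By that step, a member rested on 150 to 3057 reads in any pup, an estimate.

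The members and gene lists were chosen with earlier results of these data known. The 14606 rows averaging 10 or more were put on the log2(normalized count + 1) scale, where changes of low rows are understated. limma 3.58.1 under R 4.3.3 was fitted with an empirical Bayes variance trend, with Benjamini-Hochberg adjustment over all tested rows and a threshold of 0.05. Single genes were also compared with exact permutation tests over the 1716 ways to divide the pups (two-sided). Correlations used 100000 permutations, adjusted over 28 and 32 relations, and their r was repeated without 2 pups. The step relative to endothelial genes and the comparison with marker lists were chosen after seeing the data. Genes named are the members, partners chosen by role (21 names, 20 with a row; 1 more is not reported here), list genes that passed, and the 3 rows most like each member; of those 3, the first and some others are printed. *Mcam*, *Cnn1*, *Egln3*, *Pgf*, *Ttr* and the list genes that passed only under an alternative fall outside this rule and were named after their values were seen. The scripts were tested on simulated data. Python 3.11.15 ran the remaining work, with scipy 1.17.1, numpy 2.4.6, matplotlib 3.10.9 and pandas 2.3.3. Alternatives were other pseudocounts (0.1 and 10), filters (none and a mean of 100) and scalings, summed rows, weighted pups, a fit lacking the variance trend, a block by replicate number, and each pup left out.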

Additional observations from a re-analysis of the deposited data

Results flagged for a closer look

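*Rgs5* in control pup 5 stood apart from the other control pups, at 199 normalized counts where the next lowest had 444. The gap was 0.657 of the group's whole range, above Dixon's 95% critical value for 7 samples. It was 1 of 16 groups examined, and chance flags about 1 group in 20.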

How the results depend on the processing

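No member passed the threshold under any of the 24 alternatives (adjusted p from 0.150 to 1.000 over the 8 genes). The count of rows called over the whole table was 0, but 40 with weighted pups, 18 with the replicate block and 0 to 179 with 1 pup left out (7 without control pup 6, 179 without PTU pup 2). Among list genes it was 0, but 1 with weighted pups, 1 with the replicate block (*Snap25*) and 0 to 2 with 1 pup left out (1 without control pup 6, and *Sox9* and *Hes1* without PTU pup 2). Same-numbered pups came from different litters and their deviations correlated by -0.0700 to 0.198. Differently numbered pups were not compared in this way, so these values cannot decide whether the numbers pair the pups. The block changed no member's call. With every pup at the same total, the median member log2 fold change was 0.22 and that of *Kdr* turned to 0.15, while 9 of 28 member pairs correlated. Small differences changed sign elsewhere. Left-out pups gave ranges of -0.12 to 0.0671 for *Kdr*, -0.0183 to 0.11 for *Eng*, -0.16 to 0.12 for *Rgs5* and -0.0823 to 0.11 for *Mfsd2a*; *Rgs5* was -0.0095 with weighted pups and *Mfsd2a* -0.0088 with quantile normalization. Relative to the endothelial genes, *Tek* ranged from -0.0829 to 0.0258. Of the 32 relations to marker lists, 0 to 2 passed with 1 pup left out (*Kdr* with the endothelial list without control pup 2 or 5 or PTU pup 1 or 6, *Tek* with neurons without PTU pup 1). The cause of these changes was not tested. Counting error beyond the spread between pups was not estimated, because whole reads were not recovered.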
